A study of Mus musculus with 18 samples.

Results

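The 10 genes described here are members of the BCL2 family, taken by their symbols from a table of 18204 genes: the BH3-only genes Bmf, Bik, Bbc3, Pmaip1 and Bcl2l11, the effectors Bax and Bak1, and the anti-apoptotic genes Bcl2, Bcl2l1 and Mcl1. All 10 were in the table and among the 16383 genes tested, although Bik only just passed the limit on low expression and was listed at 0 in 16 of 18 samples. RNA was sequenced from J774.1, a mouse macrophage line, either wildtype or carrying frameshift mutations with premature stops in both Ctbp1 and Ctbp2 (Ctbp1/2 dKO), which encode the C-terminal binding proteins, transcriptional corepressors with a dehydrogenase fold. Cells of each genotype were kept for 4 h with vehicle (PBS/DMSO), with MTOB at 1.5 mM or with 4-Cl-HIPP at 250 µM, with 3 samples in each of the 6 groups and 1 vehicle group per genotype. MTOB is a keto acid of the methionine salvage pathway and 4-Cl-HIPP a hydroxyimino acid with a chlorophenyl group, and both compete for the substrate site of the CTBPs. The knockout line was grown out from single cells, and the number of clones is not given in the sources used here, so clone and genotype cannot be told apart. Replicates are described as a biological triplicate, and p-values measure the spread between these samples.

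BCL2 family proteins decide whether the outer membrane of mitochondria stays intact. Anti-apoptotic members bind and hold the effectors BAX and BAK, which otherwise form pores that release cytochrome c. BH3-only proteins are the upstream triggers, induced or released by stress, and fill the groove of the anti-apoptotic proteins or engage the effectors directly. CTBPs have been described in other cell types as repressors of BH3-only genes, Bik and Pmaip1 among them, and the samples allow each member to be compared with and without CTBPs and with and without each inhibitor.

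Values are TPM, transcript abundances scaled to a common total and corrected for transcript length, so levels can be set side by side between genes. Each sample summed to between 999766 and 999897 TPM, the number of reads is unknown, and replicates correlated at 0.9825 to 0.987 across genes on the log2(TPM + 1) scale. Differences below are on that scale, tested with limma and adjusted by Benjamini-Hochberg over all tested genes, and a gene is said to have risen or fallen only where the adjusted p was below 0.05. That scale understates the change of low genes, so ratios of mean TPM are also given. Ctbp1 itself was at 218 ± 18.1 TPM (SD, n = 3) in wildtype vehicle samples and 25.1 ± 0.638 TPM in dKO vehicle samples, a difference of -3.07 (SE 0.13, adjusted p = 1.61e-10). Ctbp2 mRNA was at 92.6 ± 4.57 and 75.9 ± 3.13 TPM (difference -0.28, adjusted p = 0.00427). These are levels of RNA, and the study reported loss of both proteins in the dKO cells by western blot. All 8 macrophage markers had a mean of at least 1 TPM, and the summed T cell, B cell, and fibroblast and epithelial markers reached at most 2.10, 0.302 and 1.15 TPM in any sample. The macrophage markers summed to between 2629 and 3448 TPM in wildtype and between 2357 and 2879 TPM in dKO samples. Some of them moved with genotype: Adgre1 (24.6 to 107 TPM in wildtype, 6.70 to 13.7 in dKO) and Cd14 (370 to 857 and 91.6 to 329) were lower in dKO samples, and Itgam was higher (34.6 to 65.3 against 11.3 to 21.0). These ranges span the treatments. Mean Adgre1 in wildtype was 29.1 TPM with vehicle, 102 with MTOB and 30.7 with 4-Cl-HIPP. Mean Cd14 was 458, 833 and 377 TPM in the same order. Of the 8 markers, 4 were higher with MTOB in wildtype (3.8% of all genes) and 3 in dKO cells (3.04%), with none lower. The part of the markers in the genotype and treatment differences given here was not tested. In bulk RNA, fewer cells expressing a gene and less of its RNA per cell cannot be told apart.

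Loss of CTBPs went with more RNA of 2 of the 5 BH3-only genes, Bmf and Pmaip1, and with less RNA of Bax and Bcl2. Under vehicle, 4 of the 10 members passed the test, where 10.7% of all tested genes did. The tested genes include many of low expression, and shares among genes of similar level were not computed. The members were also chosen with earlier results of these data known, so the counts and shares stand side by side only. Of the 4 members past the test under vehicle 2 were higher and 2 lower, beside 7.01% and 3.72% of all genes. Under MTOB 5 members passed (11.2% of all genes), 2 higher (6.98%) and 3 lower (4.18%). Under 4-Cl-HIPP 4 members passed (10.2% of all genes), 2 higher (6.6%) and 2 lower (3.63%). Averaged over the 3 treatments, 6 passed against 22.4% of all genes, 2 higher (13.1%) and 4 lower (9.27%), and the median difference of the members was -0.03 against 0.01 for all tested genes. With the fold limit of 1.5 that the study also used, the counts were 2 under vehicle (4.83% of all genes), 3 under MTOB (4.95%), 1 under 4-Cl-HIPP (4.72%) and 2 in the average (5.2%). Over all 9 dKO and 9 wildtype samples, the ranges did not overlap for Bmf and Pmaip1, 2 of 10 members, where this held for 5.26% of all tested genes.

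**Figure D1:**
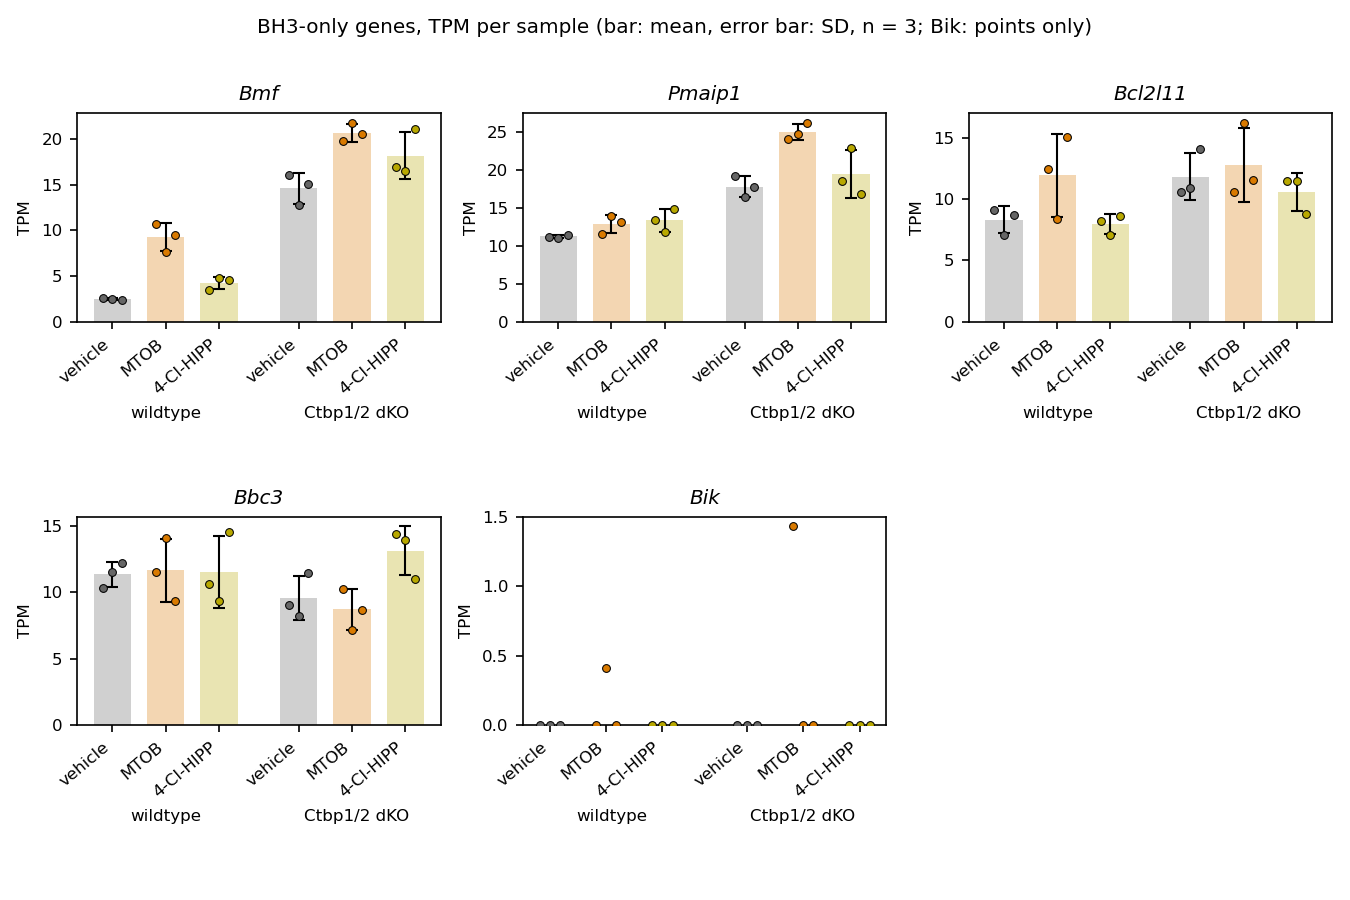
TPM of the 5 BH3-only genes in each sample (points) by genotype and treatment, with the group mean as a bar and its SD as an error bar (n = 3; points only for Bik). For Bmf and Pmaip1 the 9 dKO points lie above the 9 wildtype points, while those of Bcl2l11 and Bbc3 overlap and Bik is at 0 in all but 2 samples.

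Bmf (ENSMUSG00000040093), whose protein is held at the cytoskeleton through dynein light chains until stress releases it, showed the most marked change of the 10 members. Its gene spans 118359238 to 118380177 on chromosome 2 (minus strand, GRCm39) and has 9 annotated transcripts. Wildtype vehicle samples held 2.58, 2.44 and 2.31 TPM. In dKO vehicle samples the values were 16.0, 12.7 and 15.0 TPM. The means were 2.45 ± 0.135 and 14.6 ± 1.67 TPM (SD, n = 3), a ratio of 5.96 and a difference of 2.17 (SE 0.13, adjusted p = 1.18e-08). Every dKO vehicle sample thus exceeded every wildtype sample of any treatment, including those given MTOB.

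With MTOB, wildtype cells gave 10.7, 7.59 and 9.48 TPM of Bmf (9.24 ± 1.55) and dKO cells 19.8, 21.7 and 20.5 TPM (20.7 ± 1.00). The genotype difference under MTOB was 1.09 (ratio 2.24, adjusted p = 2.25e-05). With 4-Cl-HIPP, wildtype samples held 3.42, 4.72 and 4.55 TPM (4.23 ± 0.704) and dKO samples 16.9, 16.5 and 21.1 TPM (18.2 ± 2.57), a difference of 1.87 (ratio 4.29, adjusted p = 6.57e-08). Bmf was therefore higher without CTBPs under all 3 treatments. Averaged over them the difference was 1.71 (SE 0.07, adjusted p = 7.42e-11). Over the 9 samples of each genotype Bmf ranged from 2.31 to 10.7 TPM in wildtype (median 4.55) and from 12.7 to 21.7 TPM in dKO (median 16.9). Its mean share of the summed TPM of the 5 BH3-only members was 7.36% in wildtype and 27.1% in dKO vehicle samples. That sum leaves out Bid, a more abundant BH3-only gene (80.0 TPM in wildtype and 89.8 TPM in dKO vehicle samples), so the share among all BH3-only genes is smaller.

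RefSeq's windows around annotated starts (250 bases before to 50 after, from tables on GRCm38.p6) were used for 8 of the 10 members. No window of Bik or Pmaip1 was included, which does not show that RefSeq lists none. The motif counts below therefore say nothing of Bik or Pmaip1, although Pmaip1 separated by genotype. All 15 windows of the 8 members were matched exactly, and once, to GRCm39. The sequences of Bmf are shown because it changed most with genotype, and that of Mcl1 because it moved with MTOB in both genotypes and not with genotype. Each window is named by the Gencode transcript with the nearest start, which lay 10 bases off for Bmf-201 and 6 for Mcl1-201. Bmf-205 and Bmf-206 are annotated without a defined coding sequence. Capitals mark CACCC, the core of sites that Krüppel-like factors bind, or its reverse complement GGGTG.
Bmf, start of transcript Bmf-201 (chr2:118380118-118380417, minus strand): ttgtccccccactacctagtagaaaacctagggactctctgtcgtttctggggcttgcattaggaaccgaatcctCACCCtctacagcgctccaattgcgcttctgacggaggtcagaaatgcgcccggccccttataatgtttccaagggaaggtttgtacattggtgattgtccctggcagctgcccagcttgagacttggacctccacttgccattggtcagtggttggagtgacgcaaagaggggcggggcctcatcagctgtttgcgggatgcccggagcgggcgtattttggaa
Bmf, start of transcript Bmf-206 (chr2:118378031-118378330, minus strand): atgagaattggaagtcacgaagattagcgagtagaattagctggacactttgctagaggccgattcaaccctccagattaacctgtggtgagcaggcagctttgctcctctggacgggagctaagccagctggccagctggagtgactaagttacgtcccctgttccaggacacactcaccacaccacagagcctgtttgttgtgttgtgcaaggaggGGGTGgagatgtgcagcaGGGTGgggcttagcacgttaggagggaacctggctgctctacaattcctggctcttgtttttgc
Bmf, start of transcript Bmf-205 (chr2:118375019-118375318, minus strand): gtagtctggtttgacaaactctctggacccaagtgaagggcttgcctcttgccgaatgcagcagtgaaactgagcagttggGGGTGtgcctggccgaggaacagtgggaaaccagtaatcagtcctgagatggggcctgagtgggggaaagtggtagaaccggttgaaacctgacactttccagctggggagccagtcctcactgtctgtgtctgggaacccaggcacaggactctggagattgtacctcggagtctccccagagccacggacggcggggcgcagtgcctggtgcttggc
Mcl1, start of transcript Mcl1-201 (chr3:95565782-95566081, plus strand): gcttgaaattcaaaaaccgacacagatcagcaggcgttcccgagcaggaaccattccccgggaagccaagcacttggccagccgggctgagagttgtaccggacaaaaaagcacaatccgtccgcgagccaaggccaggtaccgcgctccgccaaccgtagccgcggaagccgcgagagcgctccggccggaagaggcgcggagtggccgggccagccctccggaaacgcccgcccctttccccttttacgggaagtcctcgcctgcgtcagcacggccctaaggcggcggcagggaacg

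CACCC occurred on either strand in 10 of the 15 windows, which belong to 5 of the 8 members, while 57.5% of all 32851 windows held it. CACCTG, the core bound by ZEB factors, which recruit CTBPs, was found in 2 of the 15 windows, both of Bbc3, and in 20.2% of all windows. These 2 windows of Bbc3 overlap, so a motif in the shared stretch is counted in both. GTAAACA, a core bound by FOXO factors, was found in 2 of the 15 windows, those of Bcl2l11 and Bbc3, and in 3.65% of all windows. None of the 3 printed Bmf windows held CACCTG or GTAAACA. The motifs are a description of letters in these windows, and the gene-level values do not say from which of its starts Bmf was transcribed.

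Pmaip1 (ENSMUSG00000024521) encodes NOXA, which binds MCL1 preferentially and promotes its degradation. In vehicle samples it was at 11.1, 11.0 and 11.4 TPM in wildtype and at 19.1, 16.4 and 17.7 TPM in dKO cells. The means of 11.2 ± 0.215 and 17.8 ± 1.36 TPM (ratio 1.59) differed by 0.62 (SE 0.11, adjusted p = 0.00103). MTOB-treated samples gave 11.5, 13.9 and 13.2 TPM in wildtype (12.9 ± 1.21) and 24.1, 24.7 and 26.1 TPM in dKO (25.0 ± 1.05), a ratio of 1.94 and a difference of 0.91 (adjusted p = 2.68e-05). Both sets thus separated fully by genotype. Under 4-Cl-HIPP, wildtype samples held 13.3, 11.8 and 14.9 TPM and dKO samples 18.5, 22.9 and 16.8 TPM, a ratio of 1.45 and a difference of 0.50 (adjusted p = 0.0057). The 9 wildtype samples spanned 11.0 to 14.9 TPM and the 9 dKO samples 16.4 to 26.1 TPM, with an average difference of 0.68 (SE 0.06, adjusted p = 5.93e-07).

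The other BH3-only genes did not pass the test between genotypes under any treatment or in the average. Bcl2l11 (ENSMUSG00000027381), which encodes BIM, a trigger that binds all main anti-apoptotic proteins, was at 9.16, 7.07 and 8.73 TPM in wildtype vehicle samples and at 10.6, 10.9 and 14.1 TPM in dKO vehicle samples. These ranges did not overlap, and the difference of 0.46 (95% interval 0.05 to 0.87) had an adjusted p of 0.169. Averaged over treatments it was 0.31 (95% interval 0.07 to 0.54, adjusted p = 0.0603), and the adjusted p was 0.0223, 0.0397 or 0.0432 without wildtype MTOB replicate 3, dKO MTOB replicate 1 or dKO 4-Cl-HIPP replicate 3. Over all 25 alternatives the adjusted p of this average ran from 0.0223 to 0.12. Bbc3 (ENSMUSG00000002083), the gene of PUMA and a classical target of p53, lay between 7.15 and 14.5 TPM over all samples. Its average genotype difference was -0.14 (95% interval -0.37 to 0.09, adjusted p = 0.417). Bik (ENSMUSG00000016758), whose protein sits at the endoplasmic reticulum, was listed at 0.409 TPM in wildtype MTOB replicate 2, at 1.43 TPM in dKO MTOB replicate 1 and at 0 in every other sample. Its RNA was hence near or below what these libraries could measure in both genotypes, and no ratio is given.

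**Figure D2:**
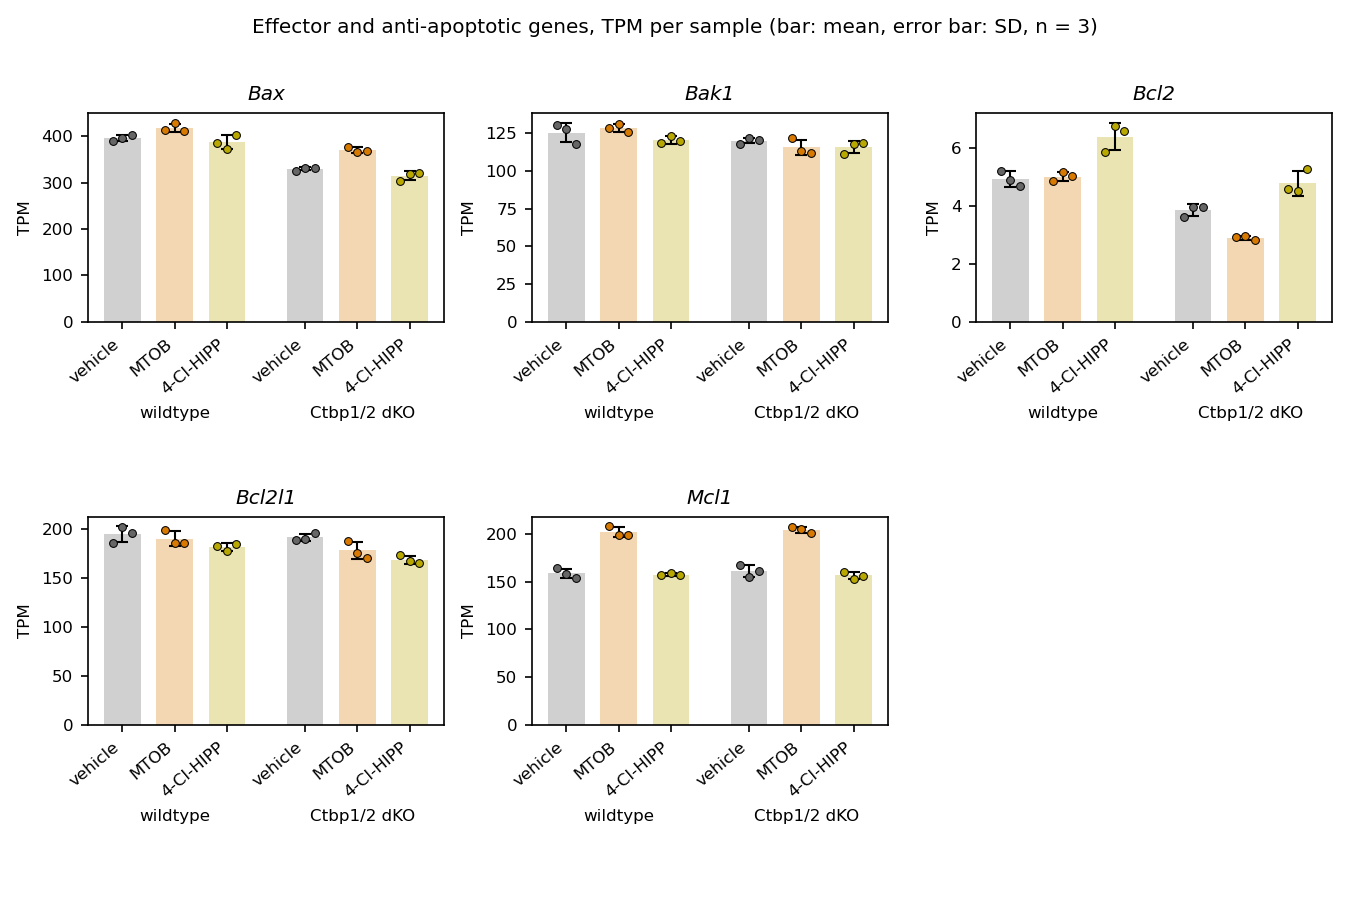
TPM of the effectors Bax and Bak1 and of the anti-apoptotic genes Bcl2, Bcl2l1 and Mcl1 in each sample (points), with the group mean as a bar and its SD as an error bar (n = 3). Bax and Bcl2 are lower in dKO than in wildtype samples of the same treatment, and Mcl1 stands near 200 TPM in both MTOB groups and near 160 TPM elsewhere.

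Among the effectors, Bax (ENSMUSG00000003873), the pore-forming member that moves from cytosol to mitochondria, was the most abundant member in all groups. It was at 391, 396 and 403 TPM in wildtype vehicle samples and at 326, 332 and 332 TPM in dKO vehicle samples. The means were 397 ± 6.18 and 330 ± 3.28 TPM, a difference of -0.27 (SE 0.04, adjusted p = 8.48e-05). Bax was lower in dKO cells under all treatments. The difference was -0.17 under MTOB (418 ± 9.42 and 370 ± 5.60 TPM, adjusted p = 0.00363), -0.30 under 4-Cl-HIPP (387 ± 15.1 and 314 ± 9.93 TPM, adjusted p = 2.73e-05) and -0.25 in the average (adjusted p = 1.77e-07). Exons of Bax overlap those of the gene models Gm45808 and Gm73431, those of Bcl2l11 overlap Gm74510 and Gm75592, those of Bak1 overlap Ggnbp1 and Gm50253, those of Bcl2 overlap D630008O14Rik and those of Bcl2l1 overlap Gm74855. Gm45808 and Gm74510 lie on the same strand as their member, and the others on the opposite strand. Libraries that do not keep the strand cannot part opposite-strand overlaps by strand, and no library can part same-strand overlaps that way. The values of these members are uncertain to that extent. The overlaps were read from a later Gencode release than the one used for quantification. No such overlap was annotated for the other members.

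Bak1 (ENSMUSG00000057789), the effector that resides on mitochondria, moved less, with all 18 samples between 111 and 131 TPM. Under MTOB its genotype difference was -0.15 (128, 131 and 126 against 122, 114 and 112 TPM, adjusted p = 0.0335). That call did not hold without wildtype MTOB replicate 1, 2 or 3 or dKO MTOB replicate 2 or 3 (adjusted p = 0.0795, 0.118, 0.0519, 0.107 and 0.125). Averaged over treatments, Bak1 was lower in dKO cells by -0.09 (SE 0.02, adjusted p = 0.0152). Under vehicle the difference was -0.06 (95% interval -0.15 to 0.03, adjusted p = 0.501).

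Bcl2 (ENSMUSG00000057329), the founding anti-apoptotic member, was the lowest of the 3 guardians, at 5.21, 4.88 and 4.67 TPM in wildtype and 3.62, 3.96 and 3.96 TPM in dKO vehicle samples. The means of 4.92 ± 0.272 and 3.85 ± 0.198 TPM differed by -0.29 (SE 0.07, adjusted p = 0.0177), but without replicate 1 of the wildtype or of the dKO vehicle samples the adjusted p was 0.0811 or 0.0795. The separation was wider under MTOB, at 4.83, 5.15 and 5.02 TPM in wildtype against 2.91, 2.95 and 2.81 TPM in dKO samples, a difference of -0.62 (adjusted p = 2.49e-05). Under 4-Cl-HIPP it was -0.36 (6.38 ± 0.472 and 4.77 ± 0.427 TPM, adjusted p = 0.00435), and in the average -0.42 (SE 0.04, adjusted p = 1.63e-06). Within each treatment the samples of the genotypes did not overlap, although the ranges over all treatments did.

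Bcl2l1 (ENSMUSG00000007659), which encodes BCL-XL, and Mcl1 (ENSMUSG00000038612), whose short-lived protein many myeloid cells depend on, differed little between genotypes. Bcl2l1 ranged from 165 to 202 TPM over all samples, with a vehicle difference of -0.02 (95% interval -0.11 to 0.07, adjusted p = 0.845). The average over treatments was -0.07 (adjusted p = 0.041), a call lost in 13 of 25 alternatives with an adjusted p up to 0.109. Among these were the fits without any 1 of wildtype vehicle replicates 2 and 3, wildtype MTOB replicate 1, wildtype 4-Cl-HIPP replicates 1 and 3, dKO vehicle replicates 1 and 2, and replicates 2 and 3 of both the dKO MTOB and the dKO 4-Cl-HIPP samples (adjusted p from 0.0694 to 0.0855). For Mcl1 the average genotype difference was 0.01 (95% interval -0.03 to 0.05, adjusted p = 0.765).

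**Figure D3:**
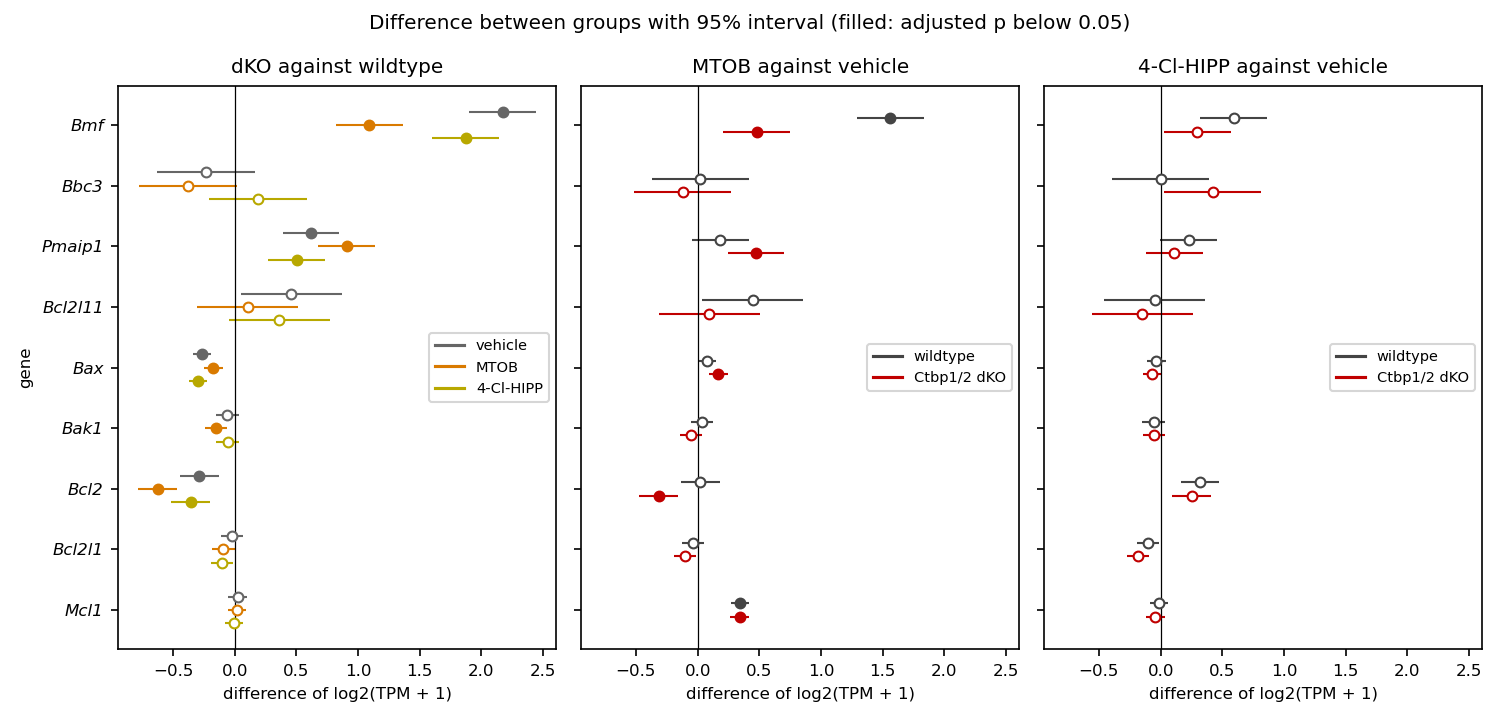
Differences of log2(TPM + 1) with their 95% intervals for 9 members, between dKO and wildtype under each treatment (left) and between each inhibitor and vehicle in each genotype (centre and right). Filled points have an adjusted p below 0.05. Bmf lies to the right of 0 throughout, Mcl1 differs from 0 only with MTOB, and no point is filled for 4-Cl-HIPP. Bik is left out because it was listed at 0 in 16 of 18 samples.

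MTOB at 1.5 mM raised Bmf and Mcl1 in both genotypes. In wildtype, 2 of 10 members passed, both higher (7.26% of all genes passed, 3.8% higher). In dKO cells 5 passed, Bmf, Pmaip1, Bax and Mcl1 higher and Bcl2 lower (6.58% of all genes, 3.04% higher and 3.54% lower). With median-of-ratios scaling the balance over all genes turned, from 46.2 to 55.9% of the calls in dKO cells being higher. With the fold limit of 1.5 these counts became 1 (2.01%) and 0 (1.63%). Averaged over both genotypes, a comparison added after the values were seen, Bmf, Pmaip1, Bax and Mcl1 passed, 4 of 10 against 13.2% of all genes (5.85% higher), and 1, Bmf, also passed the fold limit (1.92%). The median difference of the members was 0.12 in wildtype and 0.13 in dKO cells, and -0.01 over all tested genes in both. The count in dKO cells was 2 without dKO vehicle replicate 2 or dKO MTOB replicate 3, and 3 without dKO vehicle replicate 3.

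Mcl1 gave the most even response to MTOB. It was at 164, 158 and 154 TPM in wildtype vehicle samples and at 208, 199 and 198 TPM with MTOB. In dKO cells the values were 168, 155 and 161 TPM with vehicle and 207, 205 and 201 TPM with MTOB. The difference was 0.34 in each genotype (SE 0.03 in both, adjusted p = 1.11e-05 in wildtype and 1.53e-05 in dKO), with no overlap between treated and vehicle samples. The MTOB effect in dKO minus that in wildtype was 0.00 (95% interval -0.11 to 0.10, adjusted p = 0.998).

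For Bmf, MTOB raised the mean from 2.45 to 9.24 TPM in wildtype, a ratio of 3.78 and a difference of 1.56 (SE 0.13, adjusted p = 1.17e-06). In dKO cells the mean went from 14.6 to 20.7 TPM, a ratio of 1.42 and a difference of 0.48 (SE 0.13, adjusted p = 0.0339). All MTOB samples lay above the vehicle samples of their genotype. The dKO call did not hold when any 1 of dKO vehicle replicates 2 or 3 (adjusted p = 0.149 and 0.0723) or dKO MTOB replicates 1, 2 or 3 (0.0605, 0.0961 and 0.0748) was left out.

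The effect of MTOB on Bmf in dKO minus that in wildtype was -1.08 on the log2(TPM + 1) scale (SE 0.18, adjusted p = 0.0318). It was the single member among the 15 genes (0.0916% of all tested) past the test for this difference (0.0855% lower, 0.0427% also past the fold limit), and 2 members had an unadjusted p below 0.05, beside 6.89% of all genes. The call was lost in 14 of 20 alternatives, with adjusted p between 0.0175 and 0.115 and values between -1.22 and -0.87. Among the leave-outs it held only without wildtype MTOB replicate 2 or dKO vehicle replicate 2. In TPM, MTOB added 6.80 (SE 0.898) in wildtype and 6.08 (SE 1.13) in dKO cells, so that the difference between genotypes stands on the log2 scale and the increments in TPM were within their errors of each other.

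**Figure D4:**
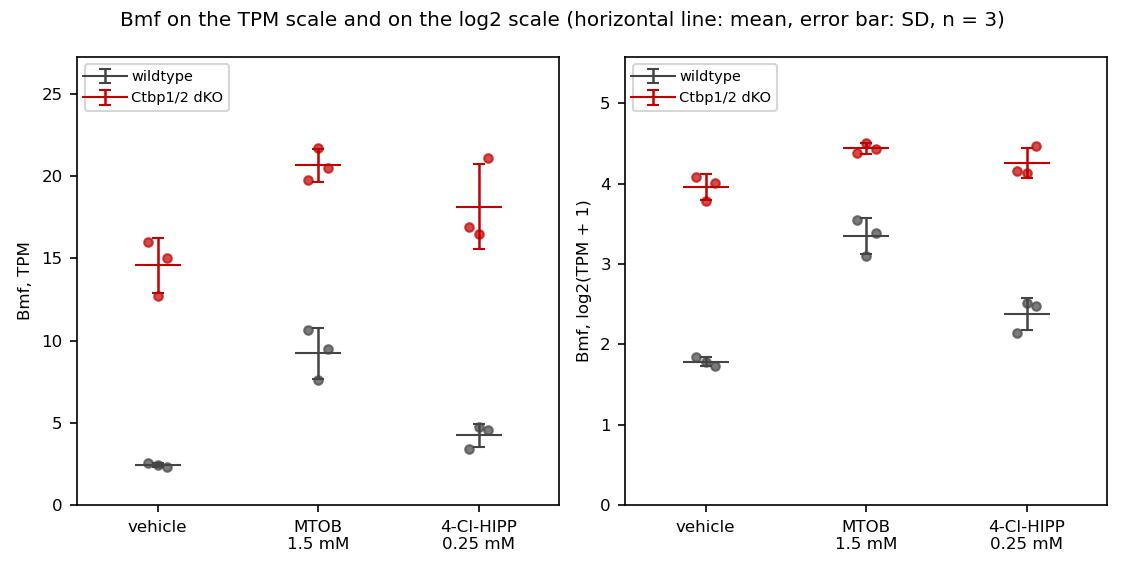
Bmf in each sample (points) of wildtype and dKO cells under vehicle, 1.5 mM MTOB and 0.25 mM 4-Cl-HIPP, in TPM (left) and as log2(TPM + 1) (right), with group means as horizontal lines and SD as error bars (n = 3). The step from vehicle to MTOB is 6.80 TPM in wildtype and 6.08 TPM in dKO samples, but 1.56 and 0.48 on the log2 scale.

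Pmaip1 rose with MTOB in dKO cells, from 17.8 to 25.0 TPM (ratio 1.41, difference 0.47, SE 0.11, adjusted p = 0.0143). Without dKO vehicle replicate 2 or dKO MTOB replicate 3 the adjusted p was 0.0699 or 0.0523. In wildtype the difference was 0.18 (95% interval -0.05 to 0.41, adjusted p = 0.418), and the 2 effects differed by 0.29 (SE 0.15, adjusted p = 0.754), so a difference between genotypes was not shown. Averaged over genotypes, Pmaip1 rose by 0.33 (adjusted p = 0.0088). Bax rose in dKO cells from 330 to 370 TPM (difference 0.17, adjusted p = 0.00873) and by 0.12 in the average (adjusted p = 0.00376). In wildtype its difference was 0.08 (adjusted p = 0.271).

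Bcl2 fell in dKO cells given MTOB, from 3.85 to 2.89 TPM (difference -0.32, SE 0.07, adjusted p = 0.016). Left out singly, dKO vehicle replicate 2, dKO vehicle replicate 3 and dKO MTOB replicate 3 gave adjusted p of 0.0651, 0.0629 and 0.0513. Wildtype cells showed a Bcl2 difference of 0.02 (95% interval -0.14 to 0.18, adjusted p = 0.943). The effects in the 2 genotypes differed by -0.34 (SE 0.10), with an unadjusted p of 0.00557 and an adjusted p of 0.462. Bcl2l11 was at 12.5, 8.35 and 15.1 TPM in wildtype cells given MTOB, a difference of 0.45 (adjusted p = 0.218), and without replicate 2 of these the difference was 0.67 (adjusted p = 0.0465). Over 14 alternatives the adjusted p of this Bcl2l11 difference ran from 0.0465 to 0.559. Bbc3, Bak1 and Bcl2l1 did not pass in either genotype, although in the average over genotypes Bcl2l1 had an adjusted p of 0.152, or 0.0499 without dKO MTOB replicate 1. Over 20 alternatives the adjusted p of that average ran from 0.0499 to 0.434.

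With 250 µM 4-Cl-HIPP, no member passed the limma test in wildtype (0 of 10, against 0.366% of all genes) or in dKO cells (0 of 10, against 0.501%). At an unadjusted p below 0.05 there were 3 of 10 members in wildtype and 4 of 10 in dKO cells, beside 8.19% and 8.47% of all genes. Averaged over genotypes, again a comparison added after the values were seen, 3 members passed, Bmf and Bcl2 higher and Bcl2l1 lower, where 1.5% of all genes did (1.1% higher, 0.397% lower). None of these passed the fold limit, beside 0.208% of all genes. No member passed for the 4-Cl-HIPP effect in dKO minus that in wildtype, at the adjusted (0% of all genes) or unadjusted level (4.48%). The inhibitor comparisons of a genotype share its vehicle samples, and the inhibitors were given at different doses, so their values stand side by side only.

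Bmf in wildtype cells went from a mean of 2.45 TPM with vehicle to 4.23 TPM with 4-Cl-HIPP (ratio 1.73, difference 0.59, SE 0.13). The samples did not overlap, and the adjusted p was 0.0647. Without wildtype 4-Cl-HIPP replicate 1, the lowest of the treated samples, it was 0.0394, and over 14 alternatives it ran from 0.0382 to 0.26. In dKO cells the difference was 0.29 (95% interval 0.02 to 0.57, adjusted p = 0.526). Averaged over genotypes, Bmf was higher by 0.44 (SE 0.09, adjusted p = 0.0195). That call was lost, with adjusted p between 0.0526 and 0.0565, when 1 of wildtype vehicle replicate 3, wildtype 4-Cl-HIPP replicates 2 or 3, dKO vehicle replicate 2 or dKO 4-Cl-HIPP replicate 3 was left out.

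Bcl2 was at 5.85, 6.74 and 6.57 TPM in wildtype cells given 4-Cl-HIPP and at 4.56, 4.49 and 5.26 TPM in dKO cells. All of these exceeded the vehicle samples of their genotype. The difference was 0.32 in wildtype (SE 0.07, adjusted p = 0.1) and 0.25 in dKO cells (SE 0.07, adjusted p = 0.222), and the average of 0.28 (SE 0.05) passed the test (adjusted p = 0.00898). Bcl2l1 was at 182, 177 and 184 TPM in wildtype and 173, 167 and 165 TPM in dKO cells with 4-Cl-HIPP. Its average difference was -0.14 (SE 0.03, adjusted p = 0.0245), a call lost in 9 of 20 alternatives with adjusted p up to 0.105. It did not hold without any 1 of wildtype vehicle replicates 2 and 3, wildtype 4-Cl-HIPP replicates 1 and 2, dKO vehicle replicates 2 and 3 or dKO 4-Cl-HIPP replicates 2 and 3 (adjusted p from 0.0523 to 0.0738). Mcl1 with 4-Cl-HIPP was at 157 ± 1.38 TPM in wildtype and 157 ± 3.86 TPM in dKO cells, and its average difference from vehicle was -0.03 (95% interval -0.08 to 0.02, adjusted p = 0.775).

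Summed by role, the 5 BH3-only genes reached 33.3 ± 1.32 TPM in wildtype vehicle samples, 45.9 ± 1.38 with MTOB and 37.0 ± 4.99 with 4-Cl-HIPP. The dKO sums were 53.8 ± 5.06, 67.6 ± 1.97 and 61.2 ± 3.56 TPM. The sum of these 5 genes was thus higher in every dKO sample than in any wildtype sample. Bid, a more abundant BH3-only gene, is not in it. Its means were 80.0, 97.6 and 71.1 TPM in wildtype and 89.8, 115 and 84.7 TPM in dKO cells, in the same order. The effectors summed to 522 ± 1.27, 547 ± 12.1 and 508 ± 13.9 TPM in wildtype and 450 ± 5.01, 486 ± 10.6 and 430 ± 13.8 TPM in dKO cells, in the same order of treatments. For the anti-apoptotic genes the sums were 358 ± 5.81, 396 ± 12.7 and 345 ± 2.58 TPM in wildtype and 356 ± 6.55, 385 ± 11.6 and 330 ± 7.39 TPM in dKO cells. The sums are descriptive and carry no test, and they are sums of RNA. They hold only the members, so the anti-apoptotic sums leave out Bcl2a1b and Bcl2a1d, which are described below.

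Of 15 further BCL2 family genes, 10 were tested. Bid, the BH3-only gene that links death receptors to mitochondria, was higher in dKO than in wildtype vehicle samples (89.8 ± 4.24 against 80.0 ± 2.83 TPM, difference 0.16, adjusted p = 0.0269), and Bnip3, a mitophagy receptor with a BH3-like motif, was lower (20.1 ± 3.20 against 31.0 ± 6.12 TPM, difference -0.59, adjusted p = 0.043). These were 1 of 10 higher and 1 of 10 lower, beside 7.01% and 3.72% of all genes. The other 8 did not pass under vehicle, and the median difference of the 10 was 0.01, as over all tested genes. MTOB raised Bid, Bcl2a1b and Bcl2a1d in each genotype, 3 of the 10 tested (3.8% of all genes were higher in wildtype and 3.04% in dKO cells), with none lower and medians of 0.07 in wildtype and 0.25 in dKO cells (-0.01 over all tested genes in both). Bcl2a1d, a copy of the NF-kB-induced anti-apoptotic gene A1, went from 42.0 ± 6.64 to 91.5 ± 0.353 TPM in wildtype (difference 1.12, adjusted p = 4.48e-06) and from 49.6 ± 1.35 to 104 ± 8.01 TPM in dKO cells (difference 1.04, adjusted p = 1.08e-05). Bcl2a1b differed by 0.91 and 0.95 and Bid by 0.28 and 0.35. The copies of A1 are nearly identical, so the split of reads between them is uncertain. With 4-Cl-HIPP none of the 10 passed in either genotype, and 2 in wildtype and 0 in dKO cells had an unadjusted p below 0.05, beside 8.19% and 8.47% of all genes.

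Downstream of mitochondria, 16 genes of the apoptosome, caspases and their inhibitors were tested. Under MTOB, Casp8, the initiator at death receptors, was higher in dKO than in wildtype samples (difference 0.43, adjusted p = 0.000646), as was Birc3, an inhibitor of apoptosis (0.37, adjusted p = 0.0193). Under 4-Cl-HIPP, Casp8 (0.42, adjusted p = 0.000781) and Casp9, the apoptosome's initiator (0.44, adjusted p = 0.00726), were higher in dKO cells. Against vehicle, MTOB gave 0 of 16 in wildtype (7.26% of all genes passed), with 6 at an unadjusted p below 0.05 (18.4% of all genes). In dKO cells 1 of 16 passed (6.58% of all genes), Birc3 (0.36, adjusted p = 0.0322). The medians of this list were 0.05, 0.04 and 0.13 in the genotype comparisons under vehicle, MTOB and 4-Cl-HIPP, where those of all tested genes were 0.01, 0.00 and 0.00.

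Of p53 and its targets, 12 of 14 were tested. Between genotypes under vehicle 2 were higher and 1 lower in dKO cells: Cdkn1a, the cell cycle inhibitor p21 (0.46, adjusted p = 0.00139), Ccng1 (0.17) and the death receptor gene Tnfrsf10b (-0.95). The counts stand beside 7.01% higher and 3.72% lower of all genes, and the median of the 12 was 0.12 against 0.01 for all genes. MTOB raised Cdkn1a in wildtype (0.68, adjusted p = 6.52e-05) and dKO cells (0.60, adjusted p = 0.000287), and Mdm2, the ubiquitin ligase of p53, in wildtype (0.27), so that 2 of 12 and 1 of 12 were higher, beside 3.8% and 3.04% of all genes. The p53 targets among the members did not move alike, as Pmaip1 was higher in dKO cells, Bax lower, and Bbc3 did not pass.

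Among 9 tested transcription factors known to induce BH3-only genes, 2 were higher and 1 lower in dKO vehicle samples, beside 7.01% and 3.72% of all genes, with a median difference of 0.10 against 0.01 for all genes. Klf6, a Krüppel-like factor, was at 2.10 ± 0.304 TPM in wildtype and 6.92 ± 0.573 TPM in dKO samples (difference 1.35, adjusted p = 4.51e-06), Foxo3 was higher by 0.20 (adjusted p = 0.0331), and Jun lower by -0.83 (adjusted p = 0.000382). With MTOB, Atf4, the effector of the integrated stress response, rose in wildtype (0.22) and dKO cells (0.25), Foxo4 fell in wildtype (-0.55) and Jun rose in dKO cells (0.59). That made 2 of 9 past the test in each genotype, beside 7.26% and 6.58% of all genes. With 4-Cl-HIPP the 1 call of 9 was Jun in dKO cells (0.85, adjusted p = 0.00652), where 0.501% of all genes passed.

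The genes whose log2(TPM + 1) followed each member most closely over the 18 samples were sought among the 11043 tested genes whose mean normalized count reached 10. For Bmf they were C3ar1 and Cxcl16 (Pearson r 0.97 for both), and for Pmaip1 Rsad2 and Jdp2 (0.94 for both). Bax was followed by Cd14 (0.98) and Nfkbil1 (0.97), and Bcl2 by Cx3cr1 (0.92) and Ski (0.89). Mcl1 was followed by Hmga1b (0.98) and Ptgs2 (0.97), Bak1 by Pcx (0.82) and Cfp (0.80), and Bcl2l1 by Rab1b (0.86) and Gm50322 (0.83). The samples share the genotype and treatment groups, and each r is a description without a test.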

How the data were processed

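RNA-seq of J774.1 cells comprised 18 samples, 3 for each of 2 genotypes and 3 treatments, grouped by their labels, which give no batch. Transcripts were quantified by the authors with Salmon 1.9.0, corrected for GC bias, against Gencode M28 (GRCm39). Gene-level estimates were imported by the authors through tximport, and the authors used DESeq2 1.44.0 for normalization and testing. The labels name polyA RNA and the study's methods name rRNA depletion with an unstranded mRNA kit. The authors deposited TPM per gene and sample, named scaled TPM in the header. The authors also deposited 1 signal value for each gene, its normalized count averaged by DESeq2. The 8 columns that hold the authors' log2 fold changes and adjusted p-values of their own comparisons were not used. Raw counts were not analysed here. TPM are relative to the other RNA of a sample and give no depth, so no counting interval was computed.

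Of 18204 genes, 16383 were tested, those whose averaged count exceeded the 10th percentile (0.2223). The 6 group means of log2(TPM + 1) over all 18 samples were fitted with limma 3.58.1 in R 4.3.3, with a trend of the variance on log2 of the averaged count and Benjamini-Hochberg adjustment over all tested genes. The procedure was run on simulated counts without clone effects. Seeded changes were 2-fold and in well-expressed genes only, so recovery of low genes or of smaller differences was not tested. Comparisons were dKO against wildtype within and over treatments, each inhibitor against vehicle within each genotype, and, for each inhibitor, the effect in dKO minus that in wildtype. Inhibitor effects averaged over both genotypes were added after the values were seen. The members and gene lists were chosen with earlier results of these data known. Named genes are all 10 members, Ctbp1 and Ctbp2, the markers, up to 4 genes past the test per list and comparison by smallest p, and the 2 genes most correlated with each member that passed a test. Alternatives were pseudocounts of 0.5 and 2, no filter and a mean count of at least 10, a fit of only the groups compared, a replicate block, no variance trend, median-of-ratios scaling, the fold limit of 1.5 and leaving out each sample. Promoter windows were from RefSeq, those of members on chromosome 18 were left out, and none of Bik or Pmaip1 was included. Figures were drawn with matplotlib 3.10.9. Some genes of the caspase list that passed a test are not reported here.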

Additional observations from a re-analysis of the deposited data

Results flagged for a closer look

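The effect of MTOB on Bmf differed between genotypes by the test of the difference itself: in dKO minus wildtype it was -1.08 on the log2(TPM + 1) scale (SE 0.18, limma adjusted p = 0.0318). Bmf rose in 3 of 3 MTOB samples of either genotype above all vehicle samples of the same genotype, and the added amounts were 6.80 TPM (SE 0.898) in wildtype and 6.08 TPM (SE 1.13) in dKO cells. Leaving out wildtype vehicle replicate 1, 2 or 3 gave adjusted p of 0.0772, 0.0824 and 0.0962, wildtype MTOB replicate 1 or 3 gave 0.0968 and 0.065, dKO vehicle replicate 1 or 3 gave 0.115 and 0.0938, and dKO MTOB replicate 1, 2 or 3 gave 0.0952, 0.0625 and 0.0622.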

How the results depend on the processing

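No difference of a member with an unadjusted p below 0.05 changed sign under any alternative. With the fold limit of 1.5 added, the number of members past the test was 2 for dKO against wildtype under vehicle, 3 under MTOB, 1 under 4-Cl-HIPP and 2 in the average, 1 for MTOB in wildtype, 0 for MTOB in dKO, 1 for MTOB over both genotypes and 0 for 4-Cl-HIPP over both genotypes. Fitting only the groups compared gave 2 for dKO against wildtype under 4-Cl-HIPP, where Pmaip1 (adjusted p = 0.112) and Bcl2 (0.0749) were lost, 1 for MTOB in dKO, where Bmf (0.082), Pmaip1 (0.0545), Bax (0.055) and Bcl2 (0.0684) were lost, and 0 for the difference of the MTOB effects. Under that fit Bcl2 under vehicle (0.0586) and Bak1 under MTOB (0.127) were lost between genotypes as well. Fewer samples enter it. The count for the difference of the MTOB effects was also 0 with a pseudocount of 2 and without the variance trend, which also lost Bak1 under MTOB (0.0897). For 4-Cl-HIPP in wildtype the count was 1, Bmf, with a pseudocount of 0.5 (adjusted p = 0.0424) and with a mean count of at least 10 (0.0382), which also brought Bcl2l11 past the test in the genotype average (0.038). Leaving out 1 sample gave 3 to 4 members for dKO against wildtype under vehicle, 4 to 5 under MTOB, 4 under 4-Cl-HIPP and 5 to 7 in the average, 2 to 3 for MTOB in wildtype, 2 to 5 for MTOB in dKO, 0 to 1 for 4-Cl-HIPP in wildtype, 0 in dKO, 4 to 5 for MTOB and 1 to 3 for 4-Cl-HIPP over both genotypes, and 0 to 1 for the difference of the MTOB effects. The cause of these losses was not tested.

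Same-numbered samples of different groups did not deviate together (r between -0.141 and 0.091 in 45 pairs), and 1 of 18 samples correlated best with its own number. No shared deviation by number was thus seen, but this cannot show whether same-numbered samples were handled together. With the replicate block, the members past the test for the difference of the MTOB effects went from 1 to 0 (Bmf, adjusted p = 0.0680) and Bcl2l1 in the average over treatments had an adjusted p of 0.0557. All other calls of members held with the block. Genes called over the whole table went from 1757 to 1678 for dKO against wildtype under vehicle and from 15 to 8 for the difference of the MTOB effects. Median-of-ratios scaling changed no call of a member, put mean Bax in dKO vehicle samples at 326 TPM, and moved the share of higher calls over all genes from 80.5 to 68.8% for 4-Cl-HIPP in dKO cells and by less than 10 points in all other comparisons. It turned the balance for MTOB, from 46.2 to 55.9% higher in dKO cells and from 44.4 to 53.3% over both genotypes. Depth was not given by the files, which limits what can be said of Bik and of the other low genes.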
